A study of Mus musculus with 24 samples.

Results

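The immunoproteasome catalytic subunits and the proteasome activator PA28 were followed through 24 RNA-seq libraries of mouse peritoneal macrophages. The rule that picks these 5 genes, from 54532 Ensembl genes in the deposited count table, names them and uses no measured value. They are Psmb8, Psmb9 and Psmb10, which encode the inducible catalytic subunits, and Psme1 and Psme2, which encode the subunits of PA28. The members, and the lists set beside them, were chosen with earlier results of these data known. All 5 genes passed the filter on low counts. Psmb8 encodes LMP7, the target of the inhibitor used in the study.

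Cells were polarized to M1 with LPS+IFN-γ, polarized to M2 with IL4, or kept unpolarized as M0, which the labels call Control. Each state was sequenced with and without ONX-0914, an inhibitor of the immunoproteasome, which gave 6 groups of 4 libraries. Each library pooled cells of 2 to 3 mice to reach 50000 cells, and the labels describe the 4 replicates of a group as independent. Because mice were pooled, the spread between libraries does not show the spread between single mice. No strain, age, sex, dose, treatment time or vehicle is given in the sources used here, and no group lacked an immunoproteasome gene.

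The proteasome is a barrel-shaped protease whose constitutive active sites are carried by the products of Psmb5, Psmb6 and Psmb7. Interferon-γ induces the counterparts of these subunits, LMP7 (Psmb8), LMP2 (Psmb9) and MECL-1 (Psmb10), which replace them in newly assembled barrels. It also induces PA28α (Psme1) and PA28β (Psme2), which form a ring that caps the barrel and opens its gate. The resulting complex is best known for shaping the peptides presented by MHC class I, and macrophages are among the cells that carry it.

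Total counts were 18.2 to 22.9 in units of 1e6 per library, and levels are given as TMM-scaled CPM (counts per 1e6, scaled for library composition). M1 replicate 2 stood apart, with mitochondrial genes taking 0.300% of its counts, against 1.07% to 1.14% in the other M1 libraries. It was also the highest M1 library for every one of the 5 genes, so the changes of these genes that rest on M1 libraries are given with and without it. Over the genes tested it correlated less with the other M1 libraries (r 0.9823 to 0.9845) than those did with each other (0.9952 to 0.9953). All 6 groups share 1 estimate of the spread, so this library also bears on calls in M0 and M2. The 9 macrophage markers were detected in every group. Nos2, an M1 marker, reached 885 CPM in M1 with ONX-0914 and 1979 CPM in M1 and had 0 to 4 counts in total in each other group, and Chil3, an M2 marker, reached 1316 CPM in M2 with ONX-0914 and 1562 CPM in M2, against 6.05 to 7.08 CPM elsewhere.

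Psmb8 (ENSMUSG00000024338, chr17:34197721-34201454, plus strand) and Psmb9 (ENSMUSG00000096727, chr17:34181987-34187764, minus strand) lie in the MHC region of chromosome 17, 9956 bases apart, on either side of the peptide transporter gene Tap1. The first exons of Psmb9 and Tap1 run in opposite directions and overlap by 212 bases, 5.79% of the exon sequence of Psmb9. Psmb10 (ENSMUSG00000031897, chr8:105935735-105938444, minus strand) lies alone, while Psme1 (ENSMUSG00000022216, chr14:55578123-55581529, plus strand) and Psme2 (ENSMUSG00000079197, chr14:55587441-55591113, minus strand) are 5911 bases apart. Coordinates are those of GENCODE M21 on GRCm38. Whether reads were counted by strand is not given in the sources used here, so reads from overlapping genes on opposite strands cannot be told apart. The antisense gene Gm20496, which overlaps 14.7% of the exon sequence of Psmb8, held 4 to 30 counts per group of 4 libraries.

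Promoters of 300 bases (250 before the RefSeq start site and 50 from it, build GRCm38.p6) are shown because the catalytic genes responded differently to IL4 while all 5 genes responded to LPS+IFN-γ. 6 motifs were searched on both strands: GAS (TTCNNNGAA), a STAT6-type GAS (TTC and GAA with any 4 bases between them), IRF/ISRE (GAAA, any 2 bases, GAAA), the antioxidant response element (TGACNNNGC), CCAAT, and NF-kappaB. Capitals mark the match, and no promoter printed in full held more than 1 of them.
Psmb8, chr17:34197945-34198244, plus strand, GAS in capitals: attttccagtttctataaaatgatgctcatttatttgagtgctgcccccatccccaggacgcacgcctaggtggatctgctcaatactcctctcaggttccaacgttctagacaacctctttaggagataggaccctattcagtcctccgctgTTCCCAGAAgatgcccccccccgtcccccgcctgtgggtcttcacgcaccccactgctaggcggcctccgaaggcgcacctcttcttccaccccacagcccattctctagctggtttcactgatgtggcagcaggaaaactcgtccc
Psmb9, chr17:34187281-34187580, minus strand, CCAAT on the other strand in capitals: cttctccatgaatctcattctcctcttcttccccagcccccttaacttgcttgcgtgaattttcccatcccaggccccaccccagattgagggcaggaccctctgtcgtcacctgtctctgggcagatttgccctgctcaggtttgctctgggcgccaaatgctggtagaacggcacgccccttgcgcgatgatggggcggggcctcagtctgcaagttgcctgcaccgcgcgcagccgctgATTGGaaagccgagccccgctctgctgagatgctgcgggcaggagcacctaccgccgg
Psmb10, chr8:105938343-105938642, minus strand, STAT6-type GAS in capitals: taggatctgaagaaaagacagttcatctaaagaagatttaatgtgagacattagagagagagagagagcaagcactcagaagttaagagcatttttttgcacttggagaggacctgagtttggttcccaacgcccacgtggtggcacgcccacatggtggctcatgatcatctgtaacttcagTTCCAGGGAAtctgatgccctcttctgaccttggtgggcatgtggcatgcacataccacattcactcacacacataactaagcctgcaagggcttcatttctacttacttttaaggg
Psme1, chr14:55578244-55578543, plus strand, IRF/ISRE on the other strand in capitals: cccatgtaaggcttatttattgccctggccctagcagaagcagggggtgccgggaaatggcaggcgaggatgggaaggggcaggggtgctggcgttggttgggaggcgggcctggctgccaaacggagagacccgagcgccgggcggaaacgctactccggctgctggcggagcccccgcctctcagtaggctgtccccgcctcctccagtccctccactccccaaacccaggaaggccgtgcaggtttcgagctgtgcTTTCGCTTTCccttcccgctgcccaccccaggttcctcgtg

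The STAT6-type match of Psmb10 lay at positions -67 to -58, counted from 1 at the start site with no position 0, and 6.95% of all 32851 RefSeq promoters of this length held that motif. The GAS match of Psmb8 lay at -97 to -89 (8.30% of promoters), the IRF/ISRE match of Psme1 at 10 to 19 (3.44%), and the CCAAT match of Psmb9 at -8 to -4 (37.4%). The 30 bases around the Psmb10 match recurred, with at most 5 mismatches, in 12 other promoters. The stretches around the Psmb8 and Psme1 matches recurred in 0 other promoters. Neither Psme2 promoter in the table held any of the letters searched. A match describes these letters only and is not shown to be a bound site. The promoters printed for Psmb8, Psmb9 and Psme1 lie wholly inside the GENCODE M21 extents of these genes. Bases before the GENCODE starts of these genes are not shown.

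LPS+IFN-γ raised the mRNA of all 3 inducible catalytic subunits by about an order of magnitude. Psmb9 had 208, 286, 210 and 211 CPM in M1, against 18.7, 19.5, 19.2 and 14.5 CPM in M0. That was a 12.7-fold rise (log2 change 3.67, SE 0.10, adjusted p = 2.36e-22 by edgeR's quasi-likelihood test with Benjamini-Hochberg adjustment over 14692 genes, the test behind every adjusted p given here unless another is named). Every M1 library lay far above every M0 library. Psmb10 had 497, 665, 451 and 525 CPM in M1, against 68.3, 63.6, 63.1 and 56.5 CPM in M0, an 8.50-fold rise (log2 change 3.09, SE 0.09, adjusted p = 8.55e-22). Psmb8 had 361, 438, 342 and 346 CPM in M1, against 56.5, 51.2, 52.4 and 48.0 CPM in M0, a 7.15-fold rise (log2 change 2.84, SE 0.07, adjusted p = 1.35e-22). In the catalytic trio, the gene lowest in M0 had the largest fold rise.

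Both subunits of PA28 rose with the catalytic genes. Psme1 had 446, 553, 431 and 469 CPM in M1, against 79.2, 79.8, 78.0 and 74.0 CPM in M0 (log2 change 2.61, SE 0.07, adjusted p = 2.09e-22). Psme2 had 564, 598, 522 and 586 CPM in M1, against 57.4, 65.4, 49.2 and 50.1 CPM in M0 (log2 change 3.35, SE 0.13, adjusted p = 6.36e-19). For each of them the M1 and M0 libraries did not overlap. Thus 5 of 5 genes rose, beside 34.6% of all genes tested, with a median log2 change of 3.09, beside -0.02 over all genes. Without M1 replicate 2 the log2 changes were 2.75 for Psmb8, 3.55 for Psmb9, 2.97 for Psmb10, 2.53 for Psme1 and 3.33 for Psme2, and all 5 were still called. In bulk RNA, more expressing cells and more RNA per cell cannot be told apart.

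**Figure D1:**
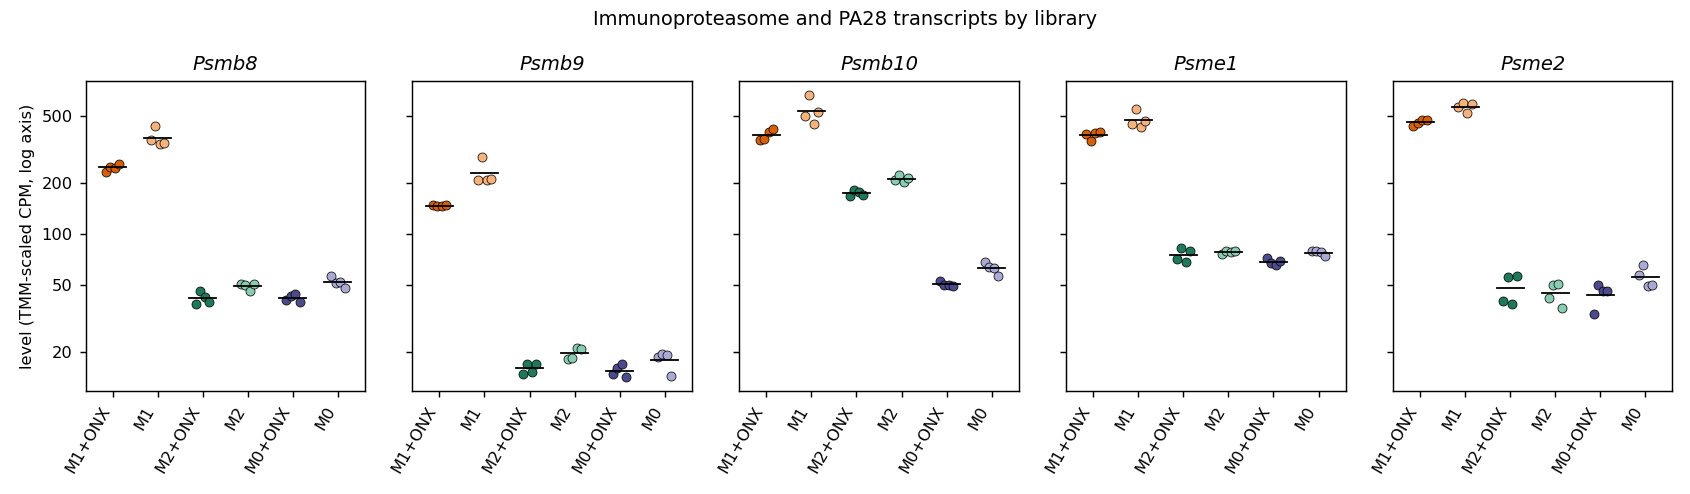
Levels of the 5 genes in every library (points, TMM-scaled CPM on a log axis) with the mean of 4 libraries (line), by group. M1 libraries with or without ONX-0914 sit highest in every panel, and Psmb10 alone has M2 libraries (169 to 225 CPM) above the M0 libraries (49.1 to 68.3 CPM).

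IL4 raised Psmb10 and none of the other 4 genes. Psmb10 had 210, 225, 202 and 214 CPM in M2, against 68.3, 63.6, 63.1 and 56.5 CPM in M0. The lowest M2 library was well above the highest M0 library, and the 3.38-fold rise had a log2 change of 1.76 (SE 0.08, adjusted p = 2.29e-15). This was 1 of 5 genes called higher, beside 18.7% of all genes tested. Its catalytic partners were not called: Psmb8 had 50.8, 50.2, 46.0 and 50.9 CPM in M2 (log2 difference from M0 -0.07, SE 0.07, adjusted p = 0.484), and Psmb9 had 18.3, 18.5, 21.1 and 20.7 CPM in M2 (0.13, SE 0.10, adjusted p = 0.334). For both, M2 and M0 libraries overlapped.

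Psme1, for PA28α, had 76.0, 79.6, 78.8 and 79.7 CPM in M2, all inside its M0 range (log2 difference 0.01, SE 0.07, adjusted p = 0.895). Psme2, for PA28β, had 41.9, 49.7, 50.6 and 36.7 CPM in M2 and was called lower than in M0 (log2 change -0.31, SE 0.12, adjusted p = 0.0483). That made 1 of 5 genes called lower, beside 17.5% of all genes tested, and the M2 and M0 libraries overlapped. The call was lost without M0 replicate 1 (-0.29) or 2 (-0.22) or M2 replicate 1 (-0.28) or 4 (-0.23), and the log2 difference was 0.04 (adjusted p = 0.677) when counts of the copy Psme2b were added.

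M1 and M2 cells were also compared with each other, a comparison that shares the M1 libraries with the one against M0. All 5 genes were higher in M1 than in M2, beside 32.2% of all genes tested. The difference was smallest for Psmb10, with a log2 change of 1.33 (SE 0.08, adjusted p = 3.79e-14). It was 2.60 for Psme1, 2.91 for Psmb8, 3.54 for Psmb9 and 3.66 for Psme2. Without M1 replicate 2 the log2 changes were 1.21 for Psmb10, 2.51 for Psme1, 2.82 for Psmb8, 3.41 for Psmb9 and 3.64 for Psme2, all called.

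ONX-0914 lowered all 5 transcripts in M1 cells, with log2 changes from -0.63 to -0.30. Differences in size between genes were not tested. Psmb8, the gene of the inhibitor's target, had 234.5, 249.3, 246.0 and 261.6 CPM in M1 with ONX-0914, against 361, 438, 342 and 346 CPM in M1. Psmb9 had 148, 146, 146 and 150 CPM with ONX-0914, against 208, 286, 210 and 211 CPM, and Psmb10 had 359, 365, 401 and 422 CPM, against 497, 665, 451 and 525 CPM. In none of the 3 did the groups overlap. The log2 changes were -0.59 (SE 0.07, adjusted p = 8.98e-08) for Psmb8, -0.63 (SE 0.09, adjusted p = 9.29e-07) for Psmb9 and -0.47 (SE 0.08, adjusted p = 2.91e-05) for Psmb10. The remaining levels were 0.667, 0.645 and 0.723 of those in M1.

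Psme1 had 394, 357, 396 and 400 CPM in M1 with ONX-0914, against 446, 553, 431 and 469 CPM in M1 (log2 change -0.30, SE 0.07, adjusted p = 5.53e-04). Psme2 had 437, 455, 477 and 471 CPM with ONX-0914, against 564, 598, 522 and 586 CPM (log2 change -0.30, SE 0.11, adjusted p = 0.0343). Neither gene's groups overlapped, and 5 of 5 genes were thus lower, beside 27.7% of all genes tested. The Psme2 call was lost without any one of M1 replicates 1 (-0.31) or 4 (-0.29), or of M1 with ONX-0914 replicates 1 (-0.28), 2 (-0.30) or 4 (-0.31). The Psme1 call was lost when the M1 libraries were fitted alone (-0.21). Without M1 replicate 2, all 5 genes were still called, with log2 changes of -0.50 for Psmb8, -0.51 for Psmb9, -0.35 for Psmb10, -0.21 for Psme1 and -0.28 for Psme2.

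In M0 cells, ONX-0914 lowered 3 of the 5 genes, beside 11.4% of all genes tested. Psmb8 had 40.5, 42.7, 44.0 and 39.7 CPM with ONX-0914, against 56.5, 51.2, 52.4 and 48.0 CPM without it (log2 change -0.32, SE 0.07, adjusted p = 0.00249). Psmb10 had 52.8, 49.8, 49.7 and 49.1 CPM with ONX-0914, against 68.3, 63.6, 63.1 and 56.5 CPM (log2 change -0.32, SE 0.09, adjusted p = 0.00769). For both, every library with the inhibitor lay below every one without it. Psme2 had 33.7, 50.2, 45.7 and 45.8 CPM with ONX-0914, against 57.4, 65.4, 49.2 and 50.1 CPM (log2 change -0.34, SE 0.12, adjusted p = 0.0487), and here the groups overlapped. Its call was lost without M0 replicate 1 (-0.32) or 2 (-0.25) or M0 with ONX-0914 replicate 1 (-0.23), 3 (-0.36) or 4 (-0.36).

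In the fit of all libraries the other genes, Psmb9 and Psme1, did not pass in M0 cells. Without M1 replicate 2 both passed (adjusted p = 0.0395 for Psmb9 and 0.00795 for Psme1). Psmb9 had 14.8, 16.1, 17.0 and 14.3 CPM with ONX-0914, against 18.7, 19.5, 19.2 and 14.5 CPM (log2 difference -0.21, SE 0.10, adjusted p = 0.164). Leaving out M0 replicate 4 (-0.30) or M1 replicate 2 (-0.20) brought it past the threshold. Psme1 had 71.7, 67.0, 66.0 and 69.3 CPM with ONX-0914, against 79.2, 79.8, 78.0 and 74.0 CPM (log2 difference -0.18, SE 0.07, adjusted p = 0.057). Its groups did not overlap, and its call was gained by leaving out M0 replicate 4 (-0.21) or M1 replicate 2 (-0.18), by DESeq2 or its size factors (-0.19 each), or by fitting the M0 libraries alone (-0.17).

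In M2 cells, ONX-0914 lowered the 3 catalytic genes, 3 of 5 beside 18.8% of all genes tested. Psmb10, the gene that IL4 raised, had 169, 183, 177 and 169 CPM with ONX-0914, against 210, 225, 202 and 214 CPM (log2 change -0.29, SE 0.08, adjusted p = 0.00682), with no overlap. Psmb8 had 38.5, 46.2, 42.3 and 39.5 CPM, against 50.8, 50.2, 46.0 and 50.9 CPM (log2 change -0.25, SE 0.07, adjusted p = 0.00908), where 1 library of each group crossed. Psmb9 had 14.8, 16.9, 15.3 and 16.9 CPM, against 18.3, 18.5, 21.1 and 20.7 CPM (log2 change -0.30, SE 0.10, adjusted p = 0.0232), with no overlap. The Psmb9 call was lost without M2 replicate 3 (-0.26) or 4 (-0.27) or M2 with ONX-0914 replicate 1 (-0.26) or 3 (-0.28). Each of those fits kept M1 replicate 2. Without that library the call held (-0.30, adjusted p = 0.00147).

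The PA28 genes of M2 cells had no call. Psme1 had 71.5, 83.0, 67.9 and 78.8 CPM with ONX-0914, against 76.0, 79.6, 78.8 and 79.7 CPM (log2 difference -0.06, SE 0.07, adjusted p = 0.526). Psme2 had 40.4, 55.6, 38.7 and 56.4 CPM, against 41.9, 49.7, 50.6 and 36.7 CPM (0.09, SE 0.12, adjusted p = 0.596). The groups of both genes overlapped.

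**Figure D2:**
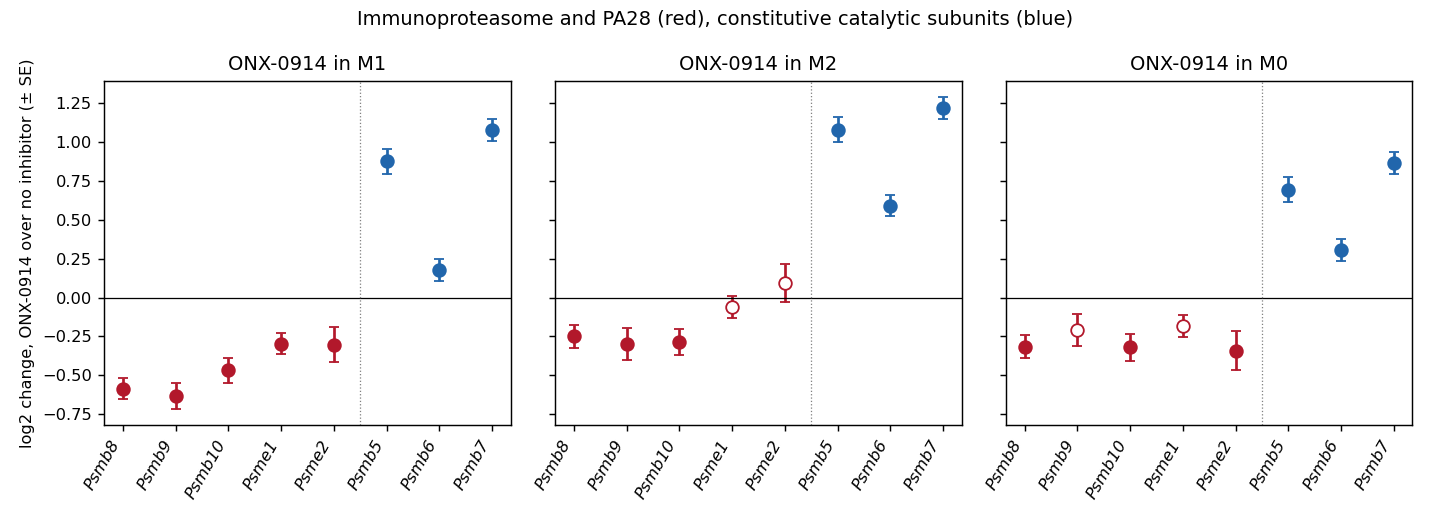
Log2 change with ONX-0914 over no inhibitor in M1, M2 and M0 cells (points, with bars of ±1 SE from the fit). Red points are the immunoproteasome and PA28 genes and blue points the constitutive catalytic subunits. Filled points passed an adjusted p of 0.05. All blue points lie above 0, and the red points that passed lie below it, from -0.63 to -0.25.

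Other transcripts moved with the inhibitor in the same libraries. The summed level of 9 macrophage markers averaged 9302 CPM (9094 to 9566) in M1 with ONX-0914 and 12500 CPM (11810 to 14510) in M1. It averaged 10790 CPM (10040 to 11290) in M2 with ONX-0914 and 13210 CPM (12450 to 13750) in M2, and 11130 CPM (10480 to 11610) in M0 with ONX-0914 and 13180 CPM (12530 to 14550) in M0. Of the 9 markers, 1 was called higher and 6 lower with ONX-0914 in M1, 0 higher and 5 lower in M2, and 1 higher and 3 lower in M0. The shares of all genes called higher and lower were 16.6% and 27.7% in M1, 17.6% and 18.8% in M2, and 9.54% and 11.4% in M0.

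The 9 B cell markers summed to 42.4 CPM (39.0 to 44.4) in M1 with ONX-0914 and 82.5 CPM (77.2 to 89.4) in M1, to 64.0 CPM (59.98 to 67.5) in M2 with ONX-0914 and 117 CPM (113 to 121) in M2, and to 62.9 CPM (60.4 to 66.3) in M0 with ONX-0914 and 110 CPM (105 to 113) in M0. Most of it was Cd22, with 55.3 CPM in M0 with ONX-0914 and 85.6 CPM in M0. No B cell marker was at 0 in all libraries of a group. Of the 8 tested, 8 were lower with ONX-0914 in M0 and M2 and 7 in M1, beside 11.4%, 18.8% and 27.7% of all genes. Markers of T and NK cells summed to at most 0.804 CPM on average, with Ncr1 at 0 everywhere, those of mast cells to at most 1.92 CPM, and those of neutrophils to 2.98 to 9.09 CPM, with S100a9 and Ly6g at 0 everywhere. Those of dendritic cells averaged 7.51 CPM in M1 with ONX-0914 and 10.3 CPM in M1, and 3.41 to 4.74 CPM elsewhere. Those of fibroblasts and mesothelium averaged 566 to 695 CPM, with no marker at 0. The part of these markers in the results was not tested.

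Whether the inhibitor acted differently by state was tested directly as a difference of log2 changes. The fall of Psmb9 was larger in M1 than in M0 (difference -0.43, SE 0.13, adjusted p = 0.025), 1 of 5 genes beside 12.4% of all genes tested for lower differences. The fall of Psmb8 was larger in M1 than in M2 (difference -0.34, SE 0.10, adjusted p = 0.0254), 1 of 5 beside 9.68%. Both stayed called without M1 replicate 2, at -0.30 and -0.25. Both calls were lost when only the 4 groups compared were fitted (-0.34 and -0.24), and that of Psmb8 also with DESeq2's size factors (-0.29). The Psmb9 call was lost without M0 replicate 4 (-0.33) or M0 with ONX-0914 replicate 2 (-0.41) or 3 (-0.38), and the Psmb8 call without M1 with ONX-0914 replicate 1 (-0.31), M2 replicate 3 (-0.30) or M2 with ONX-0914 replicate 2 (-0.28).

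The remaining differences did not pass. Between M1 and M2 the median difference over the 5 genes was -0.33, beside -0.07 over all genes, so its size was not particular to Psmb8. With 1 library left out, it was -0.378 to -0.209 for Psmb9, -0.281 to -0.153 for Psme1 and -0.485 to -0.308 for Psme2. For Psmb8 in M1 against M0 the difference was -0.27 (SE 0.10, adjusted p = 0.0634), a value called when M0 replicate 1 was left out (-0.31) or likewise M1 replicate 3 (-0.31) or 4 (-0.30). Without M1 replicate 2 it was -0.18 and not called. For Psmb10 the differences were -0.15 (adjusted p = 0.426) between M1 and M0 and -0.18 (adjusted p = 0.348) between M1 and M2, so its fall was not shown to depend on the state. Without M1 replicate 2 these were -0.0260 and -0.0594. Between M2 and M0 the count was 0 of 5, beside 6.17% of all genes called in either direction, with differences from -0.09 (Psmb9) to 0.44 (Psme2). By edgeR's test 1 of the 5, Psme2, had an unadjusted p below 0.05 (0.0189), and DESeq2 called 0.

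The response to LPS+IFN-γ remained large under the inhibitor. With ONX-0914 in both states, 5 of 5 genes were higher in M1 than in M0, beside 34.4% of all genes tested. The log2 changes were 2.57 for Psmb8, 3.25 for Psmb9, 2.94 for Psmb10, 2.50 for Psme1 and 3.39 for Psme2. IL4 under ONX-0914 again raised Psmb10 (log2 change 1.79, SE 0.09, adjusted p = 1.99e-15), 1 of 5 genes beside 22.1% of all genes tested. Psmb8 (-0.0043), Psmb9 (0.04), Psme1 (0.14) and Psme2 (0.12) did not pass. Psme1 passed without M2 with ONX-0914 replicate 3 (0.18) or M1 replicate 2 (0.14), and Psme2 when counts of its copy Psme2b were added (0.25, adjusted p = 0.00361).

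**Figure D3:**
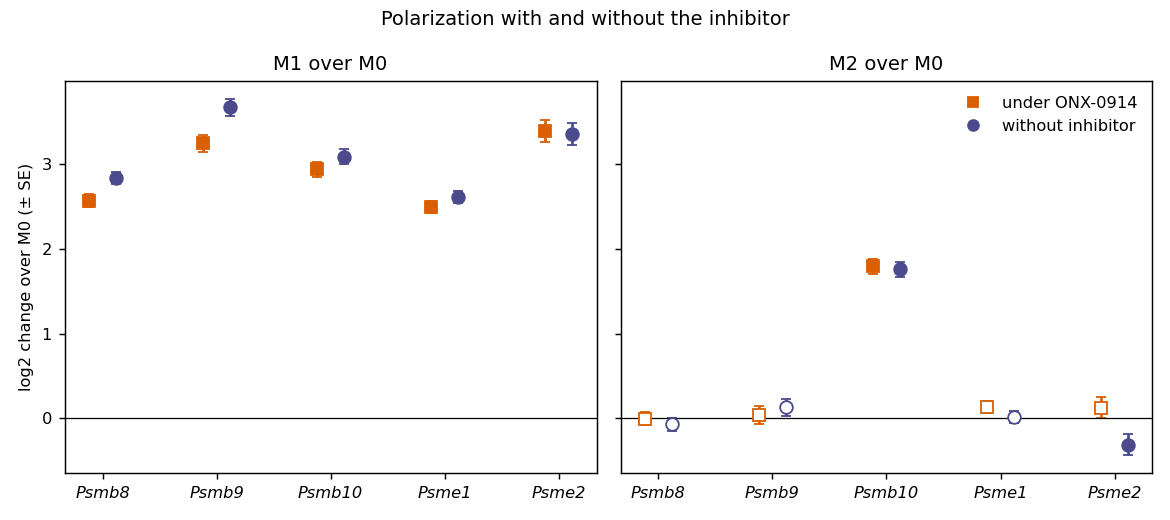
Log2 change of M1 over M0 (left) and M2 over M0 (right), with ONX-0914 in both states (squares) and without it (circles), with bars of ±1 SE and filled symbols for calls at an adjusted p of 0.05. On the left all 5 genes lie between 2.50 and 3.67. On the right Psmb10 stands at 1.79 and 1.76 while the other genes lie between -0.31 (Psme2 without the inhibitor) and 0.14.

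The constitutive subunits that these genes replace moved the other way under the inhibitor. Psmb5, the constitutive counterpart of Psmb8, averaged 290 ± 14.2 CPM in M1 with ONX-0914 and 158 ± 23.1 CPM in M1 (SD, n = 4 each). Psmb7, the counterpart of Psmb10, averaged 226 ± 16.6 CPM in M1 with ONX-0914 and 107 ± 9.75 CPM in M1. Psmb6, the counterpart of Psmb9, averaged 634 ± 14.1 CPM with ONX-0914 and 562 ± 83.9 CPM without it, with overlapping groups (log2 change 0.18, SE 0.07, adjusted p = 0.0388). The Psmb6 call in M1 was lost when any one M1 library, with or without ONX-0914, was left out (0.13 to 0.18), except M1 replicate 2, without which it was 0.29. All 3 were higher with ONX-0914 in M1 (beside 16.6% of all genes tested), in M2 (17.6%) and in M0 (9.54%). Without the inhibitor, all 3 were also higher in M1 than in M0, beside 34.6% of all genes tested, with a median log2 change of 0.96. Psmb5 shares 46.8% of its 50-base stretches with the annotated copy Gm3375, which had a mean of 2.78 to 6.82 CPM per group. Nek6, on the opposite strand, overlaps 11.8% of the exon sequence of Psmb7. The counts of Psmb7, and the ratio of Psmb10 to Psmb7 below, may therefore hold Nek6 reads.

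A ratio of counts within each library does not depend on how libraries are scaled. The ratio of Psmb8 to Psmb5 averaged 0.858 ± 0.072 in M1 with ONX-0914 and 2.36 ± 0.102 in M1, 0.175 ± 0.011 in M2 with ONX-0914 and 0.440 ± 0.014 in M2, and 0.264 ± 0.021 in M0 with ONX-0914 and 0.532 ± 0.025 in M0 (SD, n = 4 each). Psmb8 counts exceeded those of its counterpart in each M1 library and in no library of the other groups. The inhibitor changed the log2 ratio by -1.46 in M1, -1.33 in M2 and -1.01 in M0. LPS+IFN-γ changed it by 2.15 relative to M0, and IL4 by -0.27.

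The ratio of Psmb9 to Psmb6 averaged 0.232 ± 0.00556 in M1 with ONX-0914 and 0.406 ± 0.0074 in M1, 0.0501 ± 0.00393 in M2 with ONX-0914 and 0.0927 ± 0.00803 in M2, and 0.0618 ± 0.00499 in M0 with ONX-0914 and 0.0883 ± 0.00742 in M0. Its log2 ratio changed by -0.81, -0.89 and -0.51 with the inhibitor in M1, M2 and M0, and by 2.21 with LPS+IFN-γ relative to M0. The constitutive transcript stayed the more counted one in every library. In M2 against M0 the log2 difference was 0.07 with overlapping libraries.

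The ratio of Psmb10 to Psmb7 averaged 1.72 ± 0.227 in M1 with ONX-0914 and 4.96 ± 0.518 in M1, 1.18 ± 0.060 in M2 with ONX-0914 and 3.35 ± 0.257 in M2, and 0.503 ± 0.022 in M0 with ONX-0914 and 1.14 ± 0.031 in M0. The log2 ratio changed by -1.53, -1.50 and -1.18 with the inhibitor in M1, M2 and M0. It was 2.11 higher in M1 than in M0 and 1.55 higher in M2 than in M0, so this was the pair in which IL4 shifted the balance toward the inducible gene.

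Each of these differences was tested by an exact two-sided permutation test of 4 against 4 libraries, with 18 tests in all. Every exact test gave p = 0.0286, the smallest value this design allows (adjusted p = 0.0303), with no overlap between groups, except Psmb9 to Psmb6 in M2 against M0 (p = 0.457). As a share of the pair per kilobase of the principal transcript, Psmb8 made up 32.1 ± 1.87% in M1 with ONX-0914 and 56.6 ± 1.05% in M1. With the merged length of all exons the shares were 18.6 ± 1.29% and 38.5 ± 1.02%, so which of the pair is the more abundant transcript in M1 rests on the length used.

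**Figure D4:**
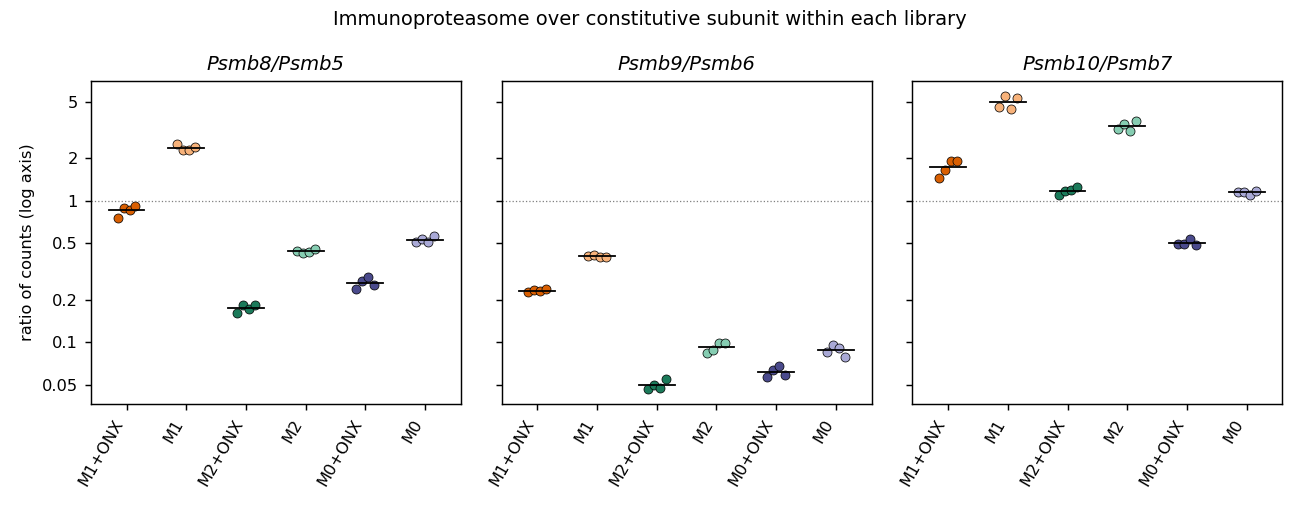
Ratio of immunoproteasome to constitutive subunit counts in each library (points, log axis) with the mean of 4 libraries (line). The dotted line marks equal counts. Within each state the libraries with ONX-0914 lie below those without it, and only Psmb10 to Psmb7 is higher in M2 (3.35) than in M0 (1.14) without overlap.

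Levels per length placed Psmb9 lowest among the 5 genes in every group. Per kilobase of principal transcript, the M1 means were 169 CPM for Psmb9, 228 for Psmb8, 408 for Psmb10, 427 for Psme1 and 590 for Psme2. In M0 they were 13.3 for Psmb9, 32.0 for Psmb8, 48.0 for Psmb10, 57.7 for Psme2 and 69.9 for Psme1. With merged exon lengths Psmb9 (62.5 in M1, 4.91 in M0) and Psmb8 (110 in M1, 15.4 in M0) were again the lowest, while the order of the other 3 changed.

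The groups also had a set order for each gene. All 5 genes were highest in M1 and next highest in M1 with ONX-0914, with no overlap between them. For Psmb10 the order went on as M2, M2 with ONX-0914, M0 and M0 with ONX-0914, and no neighbours overlapped. For Psmb9, Psme1 and Psme2 all neighbours below M1 with ONX-0914 overlapped, and for Psmb8 so did M0 with M2 and M0 with ONX-0914 with M2 with ONX-0914. The ratio between the highest and lowest group means was 14.7 for Psmb9, 12.9 for Psme2, 10.6 for Psmb10, 8.94 for Psmb8 and 6.93 for Psme1.

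Psme2 has a near-identical copy, and in M2 and M0 cells its libraries scattered more, relative to their mean, than those of the other 4 genes. Psme2b (ENSMUSG00000078153, chr11:48945354-48946190, minus strand) is a single-exon gene, and 28.3% of the 50-base stretches of Psme2 occur in it. It held 29.0% to 58.1% of the counts of the pair, depending on the library. In M2 with ONX-0914 Psme2 had 40.4, 55.6, 38.7 and 56.4 CPM, and Psme2b had 45.7, 35.9, 41.4 and 43.3 CPM. The counts of both genes are therefore uncertain, since reads may be assigned to either.

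Adding the 2 counts, an alternative chosen after the data were seen, narrowed the spread in 5 of the 6 groups. The coefficient of variation was 9.3% for the sum and 19.9% for Psme2 in M2 with ONX-0914, 5.22% and 14.8% in M2, 5.02% and 16.1% in M0 with ONX-0914, 7.68% and 13.6% in M0, and 1.85% and 3.85% in M1 with ONX-0914. In M1, where replicate 2 stood apart, it was 7.88% for the sum and 5.9% for Psme2. The sum averaged 670 ± 12.4 CPM in M1 with ONX-0914 and 836 ± 65.9 CPM in M1 (log2 change -0.32, adjusted p = 2.18e-04), and 75.0 ± 3.77 CPM in M0 with ONX-0914 and 87.5 ± 6.72 CPM in M0 (-0.22, adjusted p = 0.0192). In M2 it averaged 89.3 ± 8.31 CPM with ONX-0914 and 90.1 ± 4.70 CPM without it (-0.01, adjusted p = 0.913), and the difference between the effects in M1 and M2 then passed (-0.31, adjusted p = 0.0272).

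**Figure D5:**
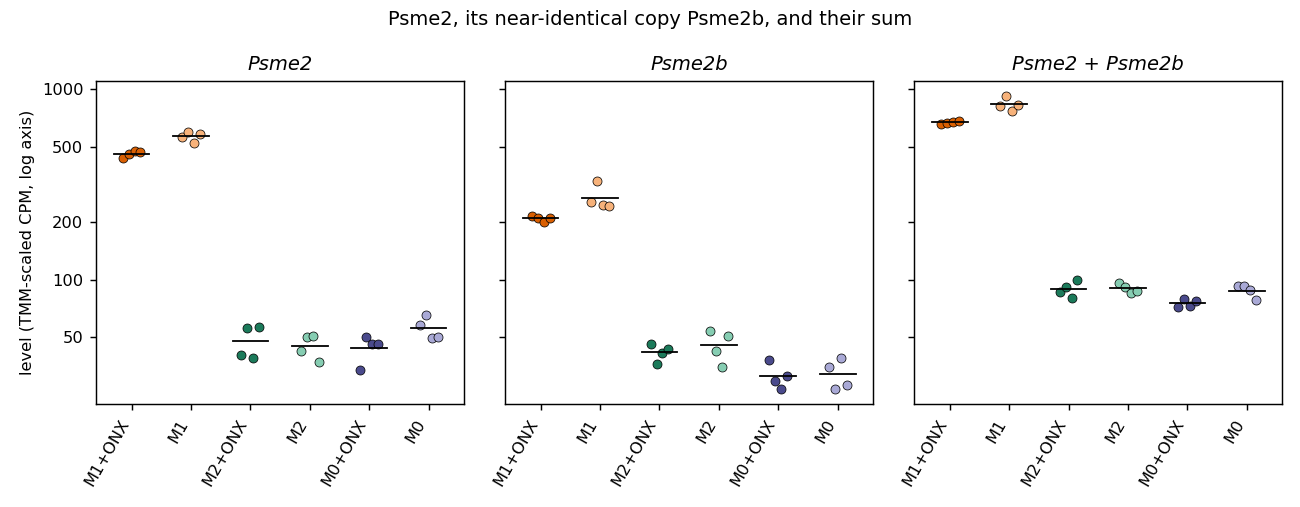
Levels of Psme2, of its near-identical copy Psme2b and of their sum in every library (points, TMM-scaled CPM on a log axis) with the mean of 4 libraries (line). The sum is less scattered than Psme2 in all groups but M1, for example 80.1 to 99.7 CPM in M2 with ONX-0914.

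The other barrel subunits rose under the inhibitor, as the constitutive catalytic subunits did. All 11 of the other core barrel subunits rose with ONX-0914 in each state, beside 16.6% of all genes tested in M1, 17.6% in M2 and 9.54% in M0. Their median log2 changes were 0.91 in M1, 1.22 in M2 and 0.84 in M0, beside -0.08, 0.00 and 0.00 over all genes. Psmb3, a structural barrel subunit, had log2 changes of 1.56, 1.55 and 1.10 in M1, M2 and M0. Pomp, the assembly factor that both kinds of barrel need, rose by 0.30 in M1, 0.82 in M2 and 0.67 in M0. Under LPS+IFN-γ all 11 core subunits were higher than in M0 (median 1.247), beside 34.6% of all genes tested, and Pomp rose by 1.15.

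Alternative caps of the barrel, and its inhibitor, were set beside PA28. Psme4, which encodes the activator PA200, rose with ONX-0914 (log2 changes 0.60 in M1, 0.99 in M2 and 0.67 in M0). Psme3, for PA28γ, which forms a nuclear cap of its own, had log2 differences of 0.01, 0.01 and 0.05 and was not called in any state. Psmf1, for the inhibitor PI31, had 0.11, -0.08 and -0.17, with no call. With LPS+IFN-γ, Psme3 rose by 0.57, Psme4 by 0.82 and Psmf1 by 0.72, beside 2.61 and 3.35 for Psme1 and Psme2.

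Genes of MHC class I loading, the step that follows peptide production, were split. Of 11 genes, 9 were higher and 2 lower in M1 than in M0, beside 34.6% and 34.2% of all genes tested. With ONX-0914, 2 were higher and 5 lower in M1 (16.6% and 27.7% of all genes), 3 higher and 2 lower in M2 (17.6% and 18.8%), and 1 higher and 3 lower in M0 (9.54% and 11.4%). Without M1 replicate 2, 5 were higher and 3 lower in M2, and 1 higher and 5 lower in M0. Tap1 and Tap2, the peptide transporter genes that neighbour Psmb8 and Psmb9, rose by 4.97 and 2.74 with LPS+IFN-γ and fell with ONX-0914 in M1 (-0.42 and -0.54). They had no call with ONX-0914 in M2 (0.15 and 0.16) or M0 (0.01 and 0.06), and the effect in M1 was lower than in M0 (differences -0.43, adjusted p = 0.00142, and -0.60, adjusted p = 3.75e-05). H2-K1, a class I heavy chain gene, rose by 1.47 with LPS+IFN-γ.

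Among 10 interferon and STAT regulators, 8 were higher and 1 lower in M1 than in M0, beside 34.6% and 34.2% of all genes tested. Irf1, a factor through which interferon-γ acts on immunoproteasome genes, rose by 5.26, and Nlrc5, an activator of class I genes, by 4.39. With ONX-0914 in M1, 6 of 10 were lower, beside 27.7% of all genes, among them Nlrc5 (-0.24, adjusted p = 0.0036), while Irf1 was not called (-0.15, adjusted p = 0.0809) unless M1 with ONX-0914 replicate 1 (-0.22) or M1 replicate 4 was left out. In M2 against M0, 4 were higher and 4 lower, beside 18.7% and 17.5% of all genes. Irf4, a factor induced by IL4, rose by 4.23, Irf1 by 0.46, and Stat6, through which IL4 signals, fell by 0.19.

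NRF1 (Nfe2l1) raises constitutive proteasome genes when the proteasome is inhibited, and NRF2 (Nfe2l2) does so under oxidative stress. Nfe2l1 mRNA was lower with ONX-0914, by -0.28 in M1, -0.51 in M2 and -0.51 in M0, and Nfe2l2 mRNA by -0.47, -0.18 and -0.16. NRF1 activity is set largely after transcription, which mRNA does not report. The antioxidant response element, to which both factors bind, was present in the promoters of Psmb5 and Psmb6, as it was in 12.4% of promoters. It was not found in those of the 5 immunoproteasome and PA28 genes, and whether this differs from that share was not tested. Psmb7 had no promoter available to search. The windows around the Psmb5 and Psmb6 matches, at -47 to -39 and -9 to -1, are shown to set these constitutive genes beside their counterparts.
Psmb5, chr14:54618009-54618067, minus strand, antioxidant response element in capitals: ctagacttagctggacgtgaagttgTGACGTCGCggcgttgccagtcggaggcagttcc
Psmb6, chr11:70525323-70525381, plus strand, antioxidant response element in capitals: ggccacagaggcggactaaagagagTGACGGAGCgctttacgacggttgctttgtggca

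The patterns of the 5 genes over the 6 groups were set beside those of 9424 genes with a mean of at least 5 CPM. Likeness was the root mean square difference between group-mean profiles of log2(CPM + 0.5), each centred on its own mean, where 0 is identical. The nearest gene to Psmb9 was Parp11 (0.08), followed by Nfkb2 and Acsl1. That to Psme2 was Slfn2 (0.06), followed by Slamf8 and Clmp, and that to Psme1 was H2-T22 (0.04), followed by Igsf8 and Sco1. The nearest to Psmb8 was Ly6e (0.11), followed by Dck and March5. These describe likeness over 6 group means only.

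The gene nearest to Psmb10 was farther from it than the nearest genes were from the other 4. It was Clic4 (0.22), followed by Ripk2 and Ms4a6d. Among the 5 genes the closest pairs were Psmb8 with Psme1 (0.15) and Psmb9 with Psme2 (0.17). Psmb10 lay 0.72 to 0.99 from the other 4, with a centred M2 level of 0.32, against -0.80 for Psmb8 and -0.94 for Psmb9.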

How the data were processed

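RNA of mouse peritoneal macrophages was sequenced as paired reads of 150 bases after polyA selection, in 24 libraries of 6 groups. The authors deposited whole-number raw counts per Ensembl gene. FastQC 0.11.9, cutadapt 2.8, Bowtie2 2.2.5, Picard and the build mm10 are named per the submitters' processing notes. No counting tool, strand setting or annotation release is given in the sources used here, and the series text states that the raw reads were lost.

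Symbols, positions and exon lengths came from GENCODE M21 and promoters from RefSeq. Genes passing edgeR's filterByExpr over the 6 groups (14692 genes, 99.9% of counts) were fitted in 1 model with TMM scaling and tested with glmQLFTest (R 4.3.3, edgeR 4.0.16, limma 3.58.1), leaving 18 residual degrees of freedom. P-values were adjusted by Benjamini-Hochberg over all genes tested, and a call is an adjusted p below 0.05. Each SE was derived from the log2 change and its F statistic, as their quotient |log2 change|/√F. Count ratios were tested by exact permutation (Python 3.11.15, scipy 1.17.1). Total counts limit precision, and the spread between libraries covers pooled mice.

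Comparisons against M0 share the M0 libraries, and those with ONX-0914 share its libraries with the tests of difference. The genes described are the 5 members, their 3 constitutive counterparts, and the pathway lists given by counts with examples; Psme2b, the neighbours of the members and the nearest patterns were added by fixed rules. The members and lists were chosen with earlier results of these data known. Replicate numbers are shared by all groups and do not pair the libraries. Alternatives were DESeq2 1.42.0 and its size factors, no filter, each comparison fitted alone, a replicate block, each library left out and, chosen after seeing the data, summed counts of near-identical copies and the length of the principal transcript.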

Additional observations from a re-analysis of the deposited data

Results flagged for a closer look

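In groups of 4 libraries, a library was singled out when its gap to the nearest other exceeded Dixon's 95% critical share of the group's range, which chance gives in about 5% of groups, and 11 of 96 groups screened had one. M1 replicate 2 accounted for 5 of them. It had 286 CPM of Psmb9 (others 208 to 211), 193 CPM of Psmb5 (145 to 150), 687 CPM of Psmb6 (509 to 528), 328 CPM of Psme2b (243 to 257) and, in the opposite direction, 85.8 CPM of Psme4 (151 to 155). The same library had a low mitochondrial share, whose part in these values was not tested.

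The others were scattered over groups. Psmb8 had 46.0 CPM in M2 replicate 3 (others 50.2 to 50.9), and Psmb9 had 14.5 CPM in M0 replicate 4 (18.7 to 19.5). Psme1 had 357 CPM in M1 with ONX-0914 replicate 2 (394 to 400), and Psmb6 had 655 CPM in M1 with ONX-0914 replicate 1 (625 to 630). Psmb7 had 58.5 CPM in M2 replicate 4 (65.2 to 65.7). The ratio of Psmb10 to Psmb7 was 0.536 in M0 with ONX-0914 replicate 3 (0.491 to 0.496).

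The effect of ONX-0914 differed between states, by a test of the difference in edgeR's model, for 8 genes among those screened. The genes screened were the 5 members, Psmb5, Psmb6, Psmb7, Tap1, Tap2, Pomp and Psme4, each in all of the differences. Of all genes tested, 19.3% were called in M1 minus M0, 13.5% in M1 minus M2 and 6.17% in M2 minus M0. In M1 minus M0 it differed by -0.43 for Psmb9, -0.43 for Tap1, -0.60 for Tap2 and -0.37 for Pomp. In M1 minus M2 it differed by -0.34 for Psmb8, -0.41 for Psmb6 (adjusted p = 0.00413), -0.57 for Tap1, -0.70 for Tap2 and -0.52 for Pomp. In M2 minus M0 it differed by 0.39 for Psmb5 (adjusted p = 0.037) and 0.36 for Psmb7 (adjusted p = 0.0319). For Tap1 and Tap2, as for Psmb8 and Psmb9, the more negative effect was in M1.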

How the results depend on the processing

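Of 876 recomputed values of the 5 genes, 815 kept their direction and their side of the threshold. All 168 recomputed count ratios kept their direction. In 144 of them a library was left out, which in groups of this size cannot move the difference by the pooled SD. Their size of movement is therefore no test. The 18 with a replicate block equal the main values by construction, so neither direction nor size could change. The 6 with Gm3375 counts added to Psmb5 moved by less than the pooled SD of the groups compared. No threshold was applied to any of the recomputed ratios. For Psme1 with ONX-0914 in M0 the change passed with DESeq2's size factors (-0.19), DESeq2 (-0.19) and the comparison alone (-0.17), and in M1 it failed with the comparison alone (-0.21). The difference of effects failed with the comparison alone for Psmb9 in M1 minus M0 (-0.34) and for Psmb8 in M1 minus M2 (-0.24; -0.29 with DESeq2's size factors). Summed counts of Psme2 and Psme2b gave -0.0120 for ONX-0914 in M2, 0.0423 for M2 against M0, 0.25, then past the threshold, for M2 against M0 under ONX-0914, -0.10 for the difference M1 minus M0 and -0.31 for M1 minus M2. With no filter on low counts Psme2 passed for the differences M2 minus M0 (0.45) and M1 minus M2 (-0.38). With DESeq2's size factors and DESeq2, Psme1 in M2 against M0 was -0.0044 in both, and Psmb9 in M2 against M0 under ONX-0914 was -0.0005 and -0.0003. Genes called for M2 minus M0 were 907, 1589 with the comparison alone, and 663 to 1669 with a library left out. The causes were not tested.

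With 1 library left out, ONX-0914 in M0 gave -0.41 to -0.23 for Psme2, -0.21 to -0.17 for Psme1 and -0.30 to -0.16 for Psmb9, in M1 -0.34 to -0.28 for Psme2, and in M2 -0.33 to -0.26 for Psmb9, with 0.13 to 0.29 for Psmb6 in M1. M2 against M0 gave -0.38 to -0.22 for Psme2 and -0.0083 to 0.0304 for Psme1, and under ONX-0914 0.0867 to 0.18 for Psme1 and -0.0578 to 0.0316 for Psmb8. Differences gave, in M1 minus M0, -0.0689 to 0.11 for Psme2, -0.31 to -0.18 for Psmb8 and -0.47 to -0.30 for Psmb9. They gave, in M2 minus M0, -0.0085 to 0.0825 for Psmb10 and -0.1338 to 0.0033 for Psmb9, and, in M1 minus M2, -0.37 to -0.25 for Psmb8.

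Same-numbered libraries deviated together little, with a mean r of 0.02 and a range of -0.07 to 0.17 over 60 pairs. Of the 32 pairs within the comparisons of 2 groups, 3 were over 0.1, the largest 0.157 for replicate 1 of M1 and M2. With the replicate number as a block, no call among the 5 genes changed, and 3131, 6558 and 5390 genes were called for ONX-0914 in M0, M1 and M2. The block gave 10151, 5364 and 9825 genes for M1 against M0, M2 against M0 and M1 against M2, 10576 and 6043 for M1 and M2 against M0 under ONX-0914, and 2887, 979 and 2046 for the differences M1 minus M0, M2 minus M0 and M1 minus M2. Paired sign flips of the ratios cannot pass the threshold with 4 pairs.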
